A study of Gallus gallus with 20 samples.

Results

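Potassium channel genes were examined in the chromatin of the chicken lens at embryonic day 4.5. They were taken as the protein-coding genes whose symbol begins with KCN in the RefSeq gene table of the chicken assembly GRCg7b, which gave 83 of 17839 protein-coding genes on assembled chromosomes. They fall into 21 subfamilies on 24 chromosomes. Of the 83 genes, 68 encode pore-forming subunits and 15 encode auxiliary subunits or regulators. Whole lenses of Gallus gallus embryos, with epithelium and fibre cells together, had been dissected and combined into 3 pools of about 44 lenses. Nuclei, at 100000 per reaction, were profiled by CUT&RUN, in which an antibody tethers a nuclease that releases the DNA around the antibody's target. Of 20 libraries, 2 used a control IgG, and 3 each used an antibody to AEBP2, JARID2, SUZ12, EZH2, H3K27me3 or H3K4me3, all from lenses of the same age. The deposited peak lists used here number 6, with 1 list per antibody, so no value exists per library, no SD or test between replicates can be given, and each value below stands without a replicate check.

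Potassium channels let potassium ions cross the cell membrane and set the resting potential, and in excitable cells they end action potentials. Voltage-gated channels open when the membrane depolarises, inward rectifiers and tandem pore (K2P) channels carry current at rest, and other channels open with intracellular calcium or sodium. The roles named below are known mainly from mammals. In the lens, potassium channels are known for keeping the cells at a negative potential, which takes part in the ion and water circulation of a tissue without blood vessels. H3K4me3 marks active and poised promoters. H3K27me3 is the repressive mark laid down by Polycomb repressive complex 2 (PRC2), of which EZH2 is the catalytic subunit, SUZ12 a core subunit, and JARID2 and AEBP2 accessory subunits.

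A gene counted as marked when a peak overlapped, by at least 1 bp, a window of 1 kb on either side of either gene end. The gene table gives no strand, so the start and the end of transcription were not told apart, and no promoter sequence was used. The fold given for a peak is the authors' own enrichment from their peak caller, and it is set only against other peaks of the same list. The lists held 11079 H3K4me3, 22875 H3K27me3, 25935 EZH2, 54487 SUZ12, 48093 JARID2 and 168110 AEBP2 peaks on chromosomes. Read depth is unknown and the antibodies were used at different dilutions, so counts from different lists are not amounts of binding. The tissue label was checked against 15 lens genes, among them crystallins, MIP and PAX6: all 15 had H3K4me3 alone and 0 had H3K27me3. Of 13 neuronal and retinal marker genes, 10 had H3K27me3 and 6 had H3K4me3. Of 7 blood marker genes, 1 had H3K4me3, 2 had H3K27me3 and 5 had neither mark. Endothelial markers had H3K4me3 in 0 of 6 genes, H3K27me3 in 2 and neither mark in 4. Muscle markers had H3K4me3 in 1 of 4 genes and H3K27me3 in 3. Markers of the mesenchyme around the eye had H3K4me3 in 5 of 8 genes and H3K27me3 in 7. Of all protein-coding genes, 57.2% had H3K4me3 and 26% had H3K27me3. The part of other cells in the potassium channel results was not tested.

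Potassium channel genes carried H3K27me3 at their ends in 63 of 83 cases (75.9%), whereas 26% of all protein-coding genes did. H3K4me3 was the other way round, at 17 of the 83 genes (20.5%) against 57.2% of all genes. EZH2 lay at the ends of 64 genes (77.1%, against 59.3% of all genes), JARID2 at 58 (69.9%, against 43.2%) and AEBP2 at 52 (62.7%, against 37.1%). Per 100 kb of gene, members also held 29.9 AEBP2 peaks, against 13.8 in all genes. Whether AEBP2 lay at the ends beyond its density along the genes was not tested. SUZ12 was at 46 potassium channel genes (55.4%), below the 64.5% of all genes. The SUZ12 direction turned when the whole gene with 1 kb on each side was counted, at 69 members (83.1%) against 76.6% of all genes. That count covers more sequence in longer genes, and the part of gene length in the turned order was not tested. Per 100 kb of gene the members held 4.59 SUZ12 peaks, against 6.91 in all genes.

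**Figure D1:**
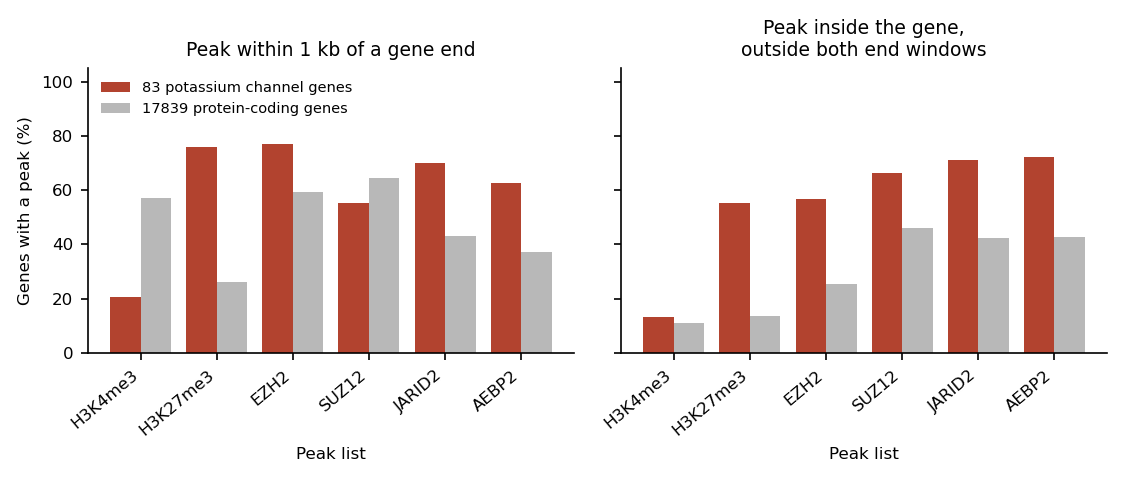
Share of genes with a peak (%, bars) in each of the 6 peak lists, for the 83 potassium channel genes (red) and all 17839 protein-coding genes (grey), at the gene ends (left) and inside the gene outside both end windows (right). At the ends the red bar is the higher for H3K27me3 (75.9% against 26%), EZH2, JARID2 and AEBP2 and the lower for H3K4me3 and SUZ12; inside the gene it is the higher in all 6 lists, by little for H3K4me3.

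Taking both histone marks together, 49 potassium channel genes (59%) had H3K27me3 alone, which 14% of all genes had. Both marks were found at 14 genes (16.9%, against 12% of all genes), and neither mark at 17 (20.5%, against 28.7%). H3K4me3 alone, the most frequent state of all genes at 45.3%, was found at 3 potassium channel genes (3.61%): KCNIP2, KCNK10 and KCNN1. Potassium channel genes are long, with a median of 24.4 kb against 12.1 kb, and the background shares differ with gene length. Among genes of at least 50 kb, 25 of 29 potassium channel genes (86.2%) had H3K27me3 at an end, against 36.8% of all such genes, and 5 (17.2%) had H3K4me3, against 62.5%. In these long genes AEBP2 was at 24 (82.8%, against 53%), JARID2 at 23 (79.3%, against 48.1%), EZH2 at 26 (89.7%, against 73.5%) and SUZ12 at 19 (65.5%, against 71.2%). All 83 members carry a symbol, while 3539 of the genes in the background carry only a LOC identifier. Among genes with a symbol, 14.8% had H3K27me3 alone, 52.8% H3K4me3 alone and 13.6% both marks. Neither mark was at 18.8% of them, below the 20.5% of members, so the order of that state turned. EZH2 was at 68.2% of genes with a symbol, SUZ12 at 74%, JARID2 at 48.3% and AEBP2 at 41.6%, and the order stayed in each of these lists.

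**Figure D2:**
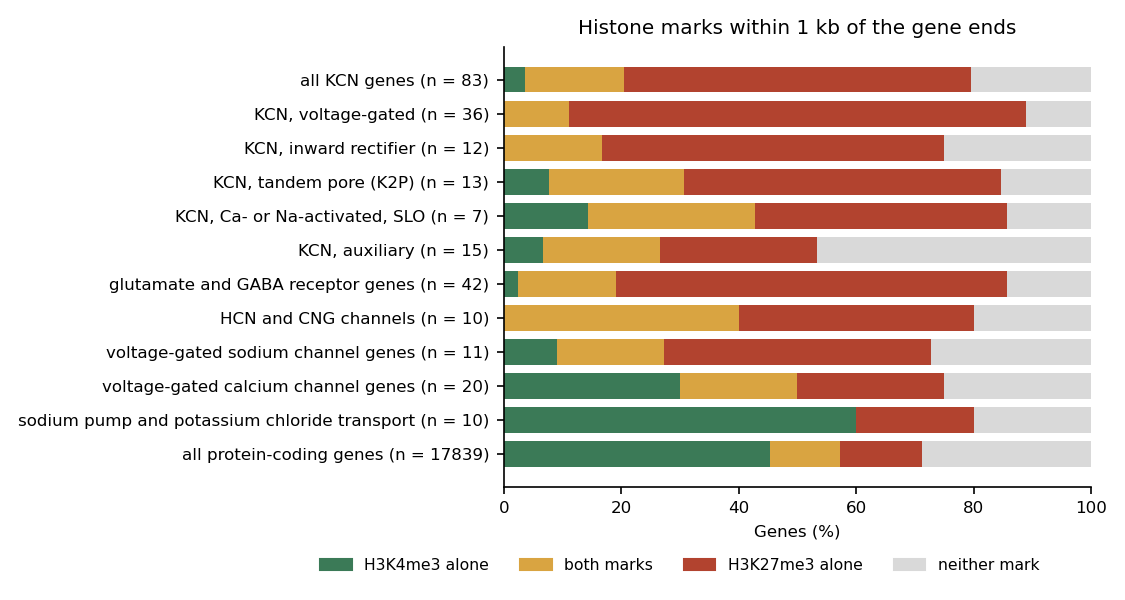
Share of genes (%, stacked bars) with H3K4me3 alone (green), both marks (yellow), H3K27me3 alone (red) or neither mark (grey) within 1 kb of the gene ends, for the potassium channel classes, other gene lists and all protein-coding genes. H3K27me3 alone fills 59% of the bar of the 83 KCN genes and 14% of that of all genes, and auxiliary subunits have the largest grey share among the KCN classes.

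Where a potassium channel gene had a peak, its highest end fold was set beside that of all genes with a peak of the same list. The median H3K27me3 fold was 14.7 over the 63 members and 12.5 over all marked genes, and the members ran from 2.49 at KCNA5 to 84.9 at the adjoining genes KCNK16 and KCNK17. The median EZH2 fold was 10.0, against 4.03 over all genes with EZH2. For JARID2 the medians were 5.9 and 4.62, for AEBP2 4.4 and 3.37, and for SUZ12 4.08 and 4.27. The median H3K4me3 fold of the 17 members was 8.13, against 13.7 over all genes with that mark. These medians mix genes of different states. Among genes with H3K27me3 alone, the median EZH2 fold was 11.5 in members and 9.86 in all such genes, and that of AEBP2 4.95 and 3.9. JARID2 turned round, at 6.16 in members and 6.4 in all such genes, while H3K27me3, at 16.3 and 16.1, and SUZ12, at 3.81 and 4.1, kept their order.

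**Figure D3:**
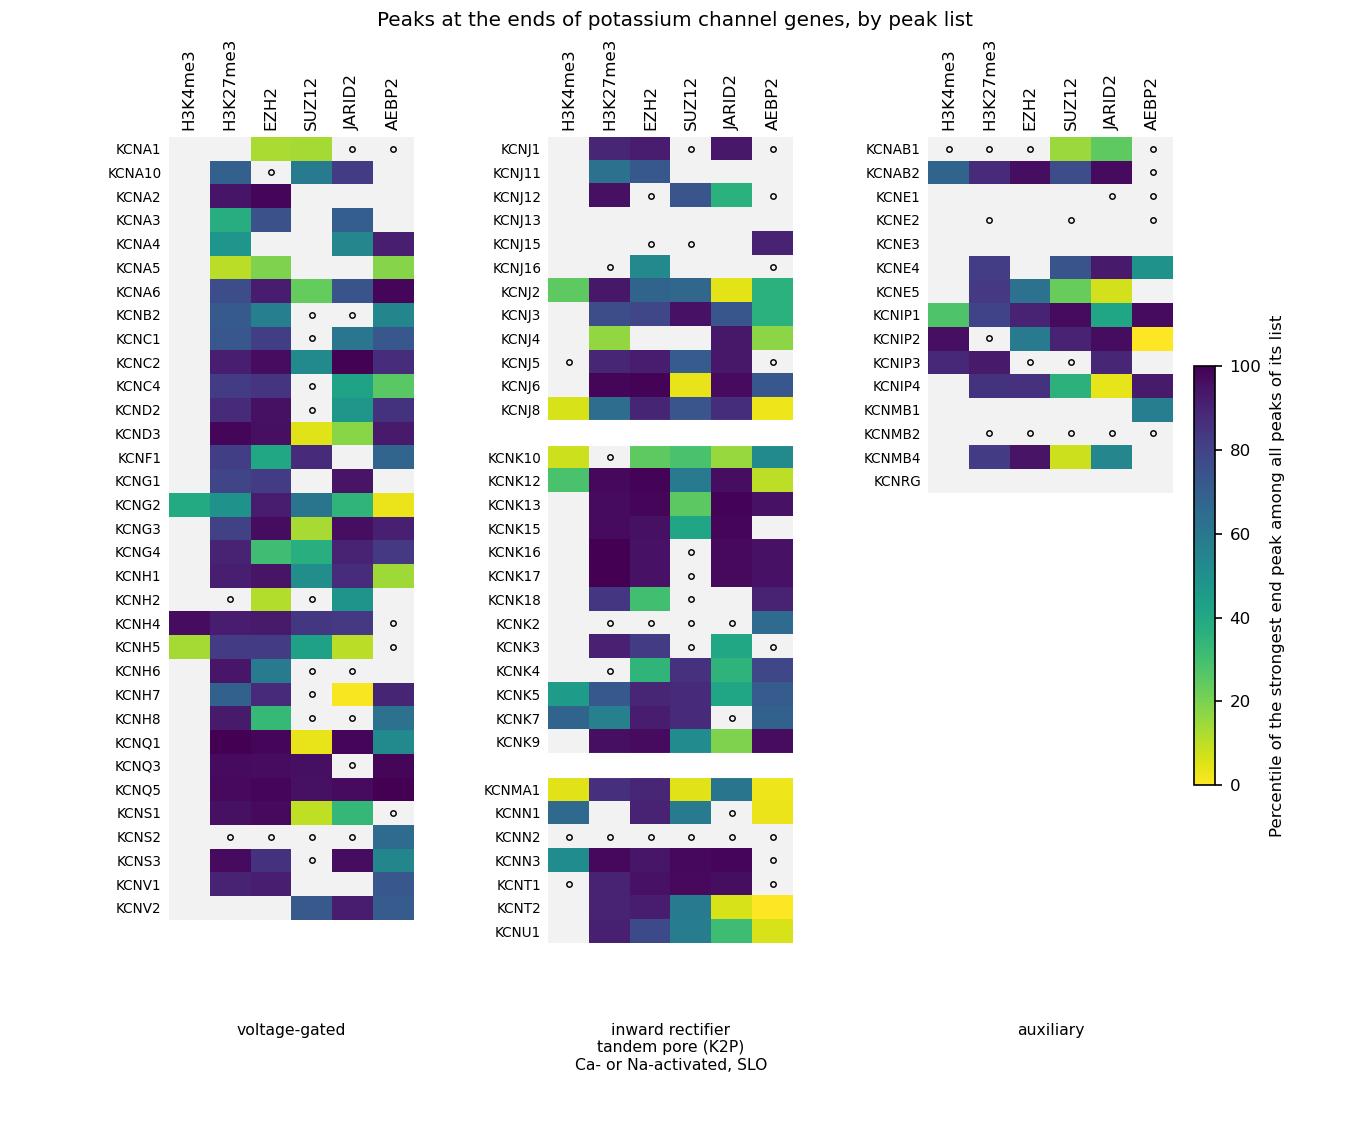
Percentile (colour) of each gene's strongest end peak among all peaks of its list, for 80 potassium channel genes (rows) in the 6 lists (columns); grey cells have no peak at an end, and open circles mark genes with a peak inside the gene only. The H3K4me3 column is mostly empty, the H3K27me3 and EZH2 columns are mostly filled, and KCNE1, KCNE2, KCNE3, KCNJ13, KCNMB2, KCNN2 and KCNRG have no coloured cell.

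Of the 36 voltage-gated genes, 28 had H3K27me3 alone, 4 had both marks, 4 had neither, and 0 had H3K4me3 alone. The KCNA genes encode the Shaker-type (Kv1) channels of axons, and 6 of 7 had H3K27me3 and 0 had H3K4me3. Their H3K27me3 folds were low as a group, with a median of 4.9. KCNA2 stood above the others with an H3K27me3 fold of 25.9 and an EZH2 fold of 35.3, while SUZ12, JARID2 and AEBP2 had no peak in its end windows. Peaks of JARID2, at 4.23, and SUZ12, at 5.21, lay within the same EZH2 peak, just outside the window at 1038 and 1336 bp from the end of KCNA2. KCNA6 followed with 7.36 for H3K27me3, and KCNA10 with 5.85, KCNA4 with 3.95, KCNA3 with 3.52 and KCNA5 with 2.49 were weaker. KCNA1 had neither mark, and its end peaks were limited to EZH2 at 2.29 and SUZ12 at 2.66.

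Most KCNA genes lie in 2 clusters, and these differed. On chromosome 26, KCNC4, KCNA10, KCNA2 and KCNA3 follow each other, and all 4 had H3K27me3 alone. This stretch, from KCNC4 to KCNA3 with 10 kb on either side, held 33 H3K27me3, 24 EZH2 and 7 AEBP2 peaks, those of EZH2 reaching 35.3. The strongest H3K27me3 peak, at 29.1, lay over PROK1 and PGA3, which are not potassium channel genes. The strongest at a potassium channel gene of the stretch was 25.9, at KCNA2. On chromosome 1, KCNA6, KCNA1 and KCNA5 follow each other, and their stretch held 2 H3K27me3 peaks, 1 at KCNA6 and 1 at KCNA5, with 3 EZH2 and 49 AEBP2 peaks. The 2 clusters differ in the spacing of their genes as well. The gaps are 121 and 82.6 kb on chromosome 1, and 53.8, 23 and 9.87 kb on chromosome 26. Only the stretch on chromosome 26 also holds other coding genes, and the peak counts were not scaled to the length of the stretches.

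**Figure D4:**
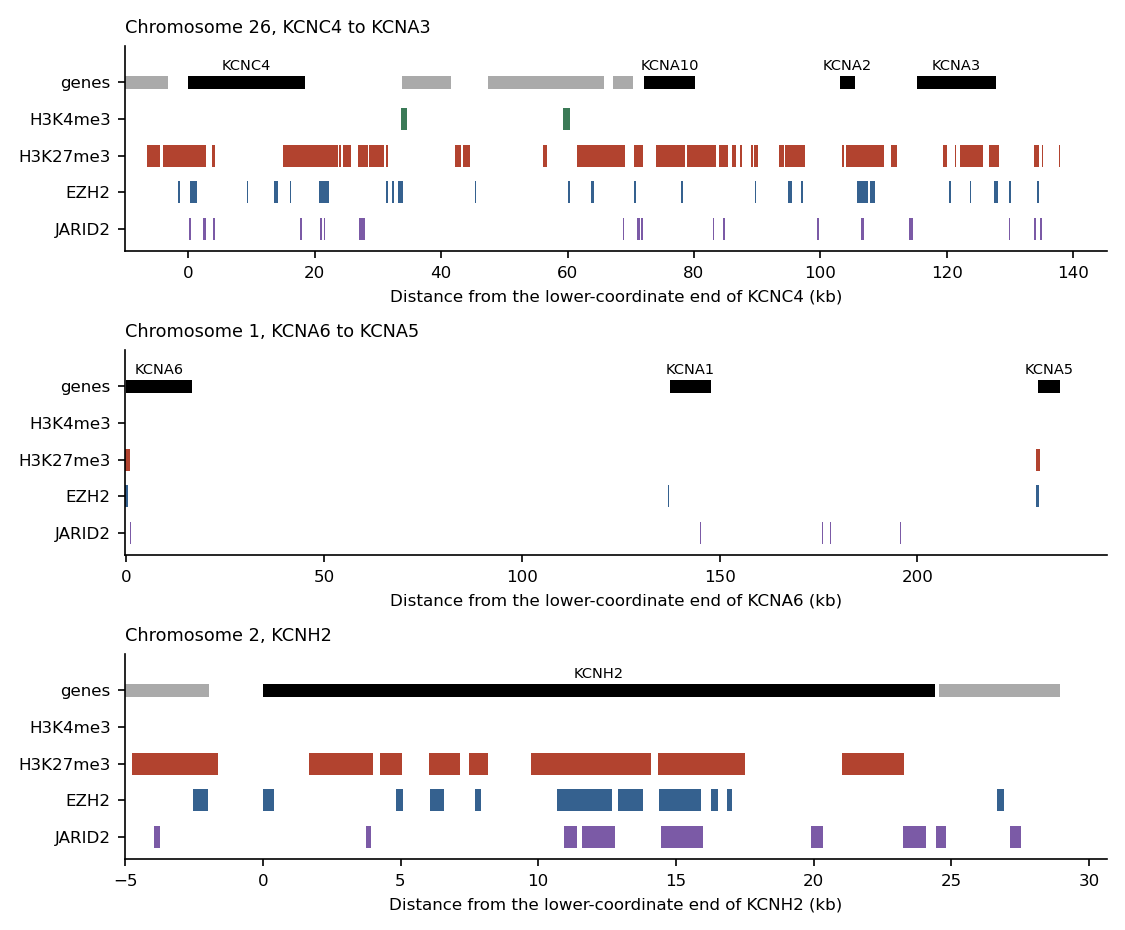
Peaks (coloured bars) of 4 lists and genes (potassium channel genes black, other coding genes grey) along 3 regions, by distance (kb) from the lower-coordinate end of the first named gene. The KCNC4 to KCNA3 region holds 33 H3K27me3 peaks, in separate stretches with gaps between them, and the KCNA6 to KCNA5 region holds 2. The H3K27me3, EZH2 and JARID2 peaks of KCNH2 lie mostly inside the gene, away from its ends.

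The other conventional voltage-gated subfamilies were marked throughout. KCNB2, for a Kv2 delayed rectifier of neurons, had an H3K27me3 fold of 6.22. KCNC1, KCNC2 and KCNC4 encode the Kv3 channels of fast-spiking neurons, with H3K27me3 folds of 6.52, 19.6 and 9.76. KCNC2 had the highest JARID2 end fold of all members, 25.2, in a peak of 1227 bp at chromosome 1, 37816650 to 37817876, inside an H3K27me3 peak of 5302 bp. KCND2 and KCND3 encode the Kv4 channels of the transient A-type current in neurons and heart. Their H3K27me3 folds were 14.4 and 50, and the KCND3 peak, 6643 bp on chromosome 26 at 3426415 to 3433057, was the third strongest H3K27me3 end peak of the members.

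KCNQ genes encode the Kv7 channels, which carry the M-current of neurons and, as KCNQ1, a repolarising current of heart and epithelia. All 5 had H3K27me3. KCNQ1, at chromosome 5, 12837708 to 13159212, had folds of 83.0 for H3K27me3, 42.2 for EZH2, 13 for JARID2, 3.75 for AEBP2 and 2.06 for SUZ12. KCNQ5 had 46.9 for EZH2, 39.4 for H3K27me3, 10.9 for JARID2 and 7.26 for SUZ12, and its AEBP2 fold of 12.5 was the highest AEBP2 end fold of the members. KCNQ3 had 38.1 for H3K27me3, 22.5 for EZH2, 7.46 for SUZ12 and 9.02 for AEBP2.

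The KCNH genes encode the EAG, ERG and ELK channels. H3K27me3 was found at 6 of 7, with folds of 25.2 at KCNH6, 22.6 at KCNH8, 20.6 at KCNH4, 19.5 at KCNH1, 9.86 at KCNH5 and 5.77 at KCNH7. KCNH4 and KCNH5 also had H3K4me3. KCNH2, which encodes the cardiac channel hERG, was counted as having neither mark, yet the strongest H3K27me3, EZH2 and JARID2 peaks of any member lay inside it. On chromosome 2, an H3K27me3 peak of 4361 bp at 369139 to 373499 had a fold of 92.7, an EZH2 peak at 370091 to 372081 had 125, and a JARID2 peak at 371004 to 372222 had 48.2. Each exceeds the highest end fold of all members in its list, which were 84.9, 53.9 and 25.2. KCNH2 spans 359416 to 383826, and the nearest H3K27me3 peak was 1131 bp from an end, just outside the window. Joined across gaps of up to 3 kb, H3K27me3 formed a domain of 15.8 kb over KCNH2 that covered 64.8% of the gene.

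KCNF1, KCNG, KCNS and KCNV genes encode silent subunits, which form no channel alone and modify Kv2 channels. Of these 10 genes, 8 had H3K27me3. The KCNS genes differed most among themselves: KCNS3 had 37.6 and KCNS1 30.6, whereas KCNS2 had no peak of either mark at an end and a highest fold of 8.33 inside. KCNV1 had 17.2, and KCNV2, whose product works with Kv2 channels in photoreceptors, had no H3K27me3 but SUZ12 at 4.7, JARID2 at 8.21 and AEBP2 at 4.51. The 4 KCNG genes were all marked, KCNG4 at 17.1, KCNG3 at 8.58, KCNG1 at 8.19 and KCNG2 at 4.02. KCNG2 alone among the silent subunits also had H3K4me3, at 6.76. KCNF1 had 9.18 for H3K27me3.

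Among the 12 inward rectifier genes, 7 had H3K27me3 alone, 2 both marks and 3 neither. KCNJ3, KCNJ5 and KCNJ6 encode the channels opened by G proteins in heart and brain, and all 3 had H3K27me3 alone. KCNJ6 was the strongest, with 46.3 for H3K27me3, 52.6 for EZH2, 11.1 for JARID2, 4.58 for AEBP2 and 2.08 for SUZ12. KCNJ5 had 16.3 and KCNJ3 7.29 for H3K27me3. KCNJ5 encloses KCNJ1, the renal channel gene, and both counted the same H3K27me3 peak of 16.3. Among the strong rectifiers, KCNJ12 had an H3K27me3 fold of 30.6 at an end and 55.9 inside, KCNJ2 had 24.2 with H3K4me3 at 4.39, and KCNJ4 had 2.76. The pore genes of ATP-sensitive channels were weaker, KCNJ11 at 4.97 and KCNJ8 at 5.22 with H3K4me3 at 2.34.

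The 3 inward rectifier genes with neither mark were KCNJ13, KCNJ15 and KCNJ16. KCNJ13, the Kir7.1 gene of the retinal pigment epithelium, had no peak of any of the 6 lists at its ends or inside. KCNJ15 had AEBP2 at 6.1, and KCNJ16 had EZH2 at 3.81 and an H3K27me3 peak of 5.4 inside. KCNJ16 lies 12.3 kb from KCNJ2, which had both marks. KCNJ15 lies 132 kb from KCNJ6.

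Of 13 K2P genes, 7 had H3K27me3 alone, 3 both marks, 2 neither and 1 H3K4me3 alone. The alkaline-activated channels KCNK16 and KCNK17 are neighbours on chromosome 3, with ends 0.109 kb apart, and shared the strongest H3K27me3 end peak of the members, 84.9 over 4382 bp at 28785009 to 28789390. They also shared peaks of EZH2 at 17.2, JARID2 at 11.3 and AEBP2 at 6.95, so these are 1 observation for both genes. KCNK5, of the same group and 65.1 kb further on, had both marks, H3K27me3 at 6.4 and H3K4me3 at 8.13. The THIK genes KCNK12 and KCNK13 had H3K27me3 folds of 45 and 36.5 and EZH2 folds of 53.9 and 39.6. The KCNK12 value is the highest EZH2 end fold of the members, and that gene also had H3K4me3 at 4.85. The TASK genes were all marked, KCNK15 at 37.7, KCNK9 at 32 and KCNK3 at 18.5. The KCNK15 peak, of 15384 bp, also lay within 1 kb of ends of LOC121106457 and WISP2. KCNK18, active in sensory neurons, had 11, and KCNK7, a silent member, had 4.47 with H3K4me3 at 15.8.

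KCNK2, KCNK4 and KCNK10 encode the mechanically gated K2P channels, and were grouped after their values were seen. They had no H3K27me3 at their ends, which the other 10 K2P genes had. This split depends on the window of 1 kb: with 2.5 kb, KCNK4 also counted, and 11 of the 13 K2P genes had H3K27me3. Inside the gene, H3K27me3 reached 35.8 at KCNK10, 16.6 at KCNK2 and 2.44 at KCNK4. KCNK10 had an H3K4me3 peak of 2.5 at an end, which also lies within 1 kb of an end of SPATA7. KCNK4 had all 4 PRC2 proteins at its ends, with SUZ12 at 5.64 and EZH2 at 3.07, and KCNK2 had AEBP2 at 4.25 alone.

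The 7 genes of calcium-activated, sodium-activated and related SLO channels showed all 4 states. KCNT1 and KCNT2, for sodium-activated channels, had H3K27me3 folds of 17.5 and 18.2, and KCNU1, known in mammals as a sperm channel gene, had 19. KCNMA1, the large-conductance BK channel gene, had both marks, 12.4 for H3K27me3 and 2.18 for H3K4me3, the lowest H3K4me3 fold of the members. The small-conductance genes KCNN1, KCNN2 and KCNN3 each had another state. KCNN3 had both marks, with 44 for H3K27me3 and 9.82 for H3K4me3, and the highest SUZ12 end fold of the members, 8.57. Inside KCNN3, H3K27me3 reached 61.5 and EZH2 67.7. KCNN1 had H3K4me3 alone at 15, with EZH2 at 9.96, and no H3K27me3 at its ends or inside. KCNN2 had no end peak in any list.

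Auxiliary genes had H3K27me3 in 7 of 15 cases and pore genes in 56 of 68, both more often than the 26% of all genes. The auxiliary genes are also shorter, with a median of 11.0 kb against 26.8 kb for pore genes. The difference between the 2 groups was not tested. The KCNIP genes encode calcium-binding partners of Kv4 channels. KCNIP4 had H3K27me3 alone at 11.6, KCNIP1 had both marks at 8.49 and 4.72 for H3K4me3, and KCNIP3 had 22.2 for H3K27me3 and 33 for H3K4me3. KCNIP2, a heart and brain subunit, had H3K4me3 alone, in peaks of 52.2 and 23.6. Of the Kv1 partners, KCNAB2 had both marks, 13.9 for H3K27me3 and 15.8 for H3K4me3, and KCNAB1 had neither at its ends and 31.6 for H3K27me3 inside.

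The KCNE genes encode small membrane proteins that alter the gating of voltage-gated channels. KCNE4 and KCNE5 had H3K27me3 folds of 9.37 and 10.2. KCNE1, KCNE2 and KCNE3 had no end peak in any list, and KCNE3 had none inside either. Of the BK channel partners, KCNMB4 had H3K27me3 at 9.55 and EZH2 at 15.7. KCNMB1, which lies within KCNIP1, had AEBP2 at 3.98 alone. KCNMB2 had no end peak in any list and H3K27me3 at 32.3 inside. KCNRG, a regulator of channel assembly, had no peak at its ends or inside.

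The H3K4me3 peaks of potassium channel genes were few and in part lay at a neighbour. The 17 genes held 21 such peaks at their ends. Of these, 8 also lay within 1 kb of an end of another coding gene, with a median fold of 19.7, and 13 did not, with a median of 4.72. KCNAB2, KCNH4, KCNIP3, KCNK10 and KCNN3 had no other H3K4me3 end peak, and their neighbours were NPHP4, RAB5C, GMCL1, SPATA7 and PMVK. This share, 29.4% of the genes with H3K4me3, compares with 49.6% of all genes with that mark. The stronger H3K4me3 peak of KCNH4, at 56.5, lay wholly outside the gene, 478 bp from its end. Among the 13 peaks near no other gene, the strongest was the 5156 bp peak at KCNIP2 with 52.2, and the others were at most 15.8. In 13 of the 14 genes with both marks the 2 peaks overlapped each other (92.9%, against 73% of all genes with both marks). KCNIP3 was the exception. Both marks on the same chromatin and each mark in other cells of the pool cannot be told apart here.

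Of the 17 genes with neither mark, 7 had no end peak in any of the 6 lists: KCNE1, KCNE2, KCNE3, KCNJ13, KCNMB2, KCNN2 and KCNRG. This is 8.43% of the members, against 16% of all genes. The other 10 had at least 1 PRC2 protein, which at 4 of them was AEBP2 alone. Of all 5125 genes with neither mark, 2853 had no PRC2 protein. EZH2, SUZ12 and JARID2 were each at 4 of the 17 (23.5%, against 8.64%, 19.8% and 17% of all genes in that state). AEBP2 was at 6 (35.3%, against 23.8%). The EZH2 folds, at KCNA1, KCNH2, KCNJ16 and KCNK4, ran from 2.23 to 3.81, all below the members' EZH2 median. Near the limit of the window, the H3K27me3 peaks just inside were 327 bp from KCNA4, 203 bp from KCNIP3 and 117 bp from KCNJ4, and those just outside were 1131 bp from KCNH2, 1315 bp from KCNK4 and 2744 bp from KCNS2. For H3K4me3 the nearest inside was 274 bp from KCNH4 and the nearest outside 1062 bp from KCNH6.

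PRC2 proteins were also counted at gene ends by histone mark state. The protein and the mark were not required at the same end, and the lists differ in length. AEBP2 peaks were also denser along the members than along all genes, which was not taken into account in these shares. Of the 49 genes with H3K27me3 alone, 44 had EZH2 (89.8%, against 78.5% of all genes in that state), 39 JARID2 (79.6%, against 67.6%), 34 AEBP2 (69.4%, against 45.8%) and 26 SUZ12 (53.1%, against 54.7%). In this state, 15 genes had all 4 (30.6%, against 19.6%), and 9 had EZH2, JARID2 and AEBP2 without SUZ12 (18.4%, against 10.5%), among them KCND2, KCNK16 and KCNS3. KCNA4, KCNA10, KCNE4, KCNJ4 and KCNJ12 had no EZH2 at an end. Inside the gene, EZH2 reached 13.8 at KCNJ12 and 4.05 at KCNA10, and KCNA4, KCNE4 and KCNJ4 had none. At the 14 genes with both marks, SUZ12, EZH2 and JARID2 were each at 13 (92.9%, against 88.1%, 96.7% and 78.1%) and AEBP2 at 9 (64.3%, against 50.7%). The 3 genes with H3K4me3 alone all had SUZ12, EZH2 and AEBP2, which lay at 89.7%, 75.7% and 39.2% of all genes in that state. The SUZ12 share was thus higher in both states with H3K4me3 than at genes with H3K27me3 alone, among members as among all genes, with no test made. In all states together, 26 members (31.3%) had all 4 proteins, against 15.2% of all genes.

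Overlap was also counted peak by peak. The ends of members held 78 H3K27me3 peaks, each counted once. Of these 64 overlapped an EZH2 peak (82.1%, against 71.7% of all H3K27me3 peaks at gene ends), 52 a JARID2 peak (66.7%, against 56.8%), 49 an AEBP2 peak (62.8%, against 39.3%) and 48 a SUZ12 peak (61.5%, against 53.4%).

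Peaks inside the gene, away from both end windows, were counted next. H3K27me3 was found inside 46 members (55.4%), against 13.7% of all genes, and EZH2 inside 47 (56.6%, against 25.5%). SUZ12 was inside 55 (66.3%, against 45.9%), JARID2 inside 59 (71.1%, against 42.5%), AEBP2 inside 60 (72.3%, against 42.6%) and H3K4me3 inside 11 (13.3%, against 11.1%). Longer genes have more room for such peaks. As a share of summed gene length, H3K27me3 peaks covered 6.66% in members and 3.55% in all genes, AEBP2 10.4% and 4.21%, EZH2 2.19% and 2.01%, JARID2 1.97% and 1.8%, SUZ12 1.45% and 2.47%, and H3K4me3 0.414% and 1.93%. Counting the gene with 1 kb on each side, 74 members (89.2%) had H3K27me3, against 30.5% of all genes. The 9 without were KCNA1, KCNE1, KCNE3, KCNJ13, KCNJ15, KCNMB1, KCNN1, KCNRG and KCNV2. H3K27me3 was inside and not at an end in 11 members (13.3%, against 4.55%): KCNH2, KCNK10, KCNMB2, KCNAB1, KCNK2, KCNS2, KCNJ16, KCNN2, KCNE2, KCNK4 and KCNIP2. Ordered by fold they ran from 92.7 at KCNH2 to 2.43 at KCNIP2. In the other lists, peaks inside and not at an end were found in 4 members for H3K4me3 (4.82%, against 4.34%), 9 for EZH2 (10.8%, against 7.6%), 23 for SUZ12 (27.7%, against 12.1%), 12 for JARID2 (14.5%, against 20.3%) and 17 for AEBP2 (20.5%, against 20.7%).

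H3K27me3 peaks joined across gaps of up to 3 kb formed domains with a median width of 5.23 kb over the 74 members that had one, and 4.95 kb over all genes that had one. Domains of at least 10 kb lay at 18 members (21.7% of the 83, against 8.94% of all genes). Among genes with a domain, however, these wide domains were at 24.3% of members and 29.3% of all genes. The widest, 47 kb on chromosome 6 at 29852024 to 29898989, reached over VAX1 and covered 38.3% of KCNK18. The next spanned 43 kb and 69.5% of KCNT1, on chromosome 17 at 8835012 to 8878032, and 34.5 kb and 91.8% of KCNJ12, on chromosome 14 at 4453560 to 4488077. Inside KCNT1 the strongest H3K27me3 and EZH2 peaks both had a fold of 46. The domain of KCNT1 also reached B3GNT10, and that of KCNJ12 reached no other coding gene. Domains covered 7 members whole (9.46% of the 74, against 12.7% of all genes with a domain): KCNA10, KCNE4, KCNE5, KCNF1, KCNH4, KCNJ11 and KCNMB4.

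AEBP2 peaks were dense inside many long potassium channel genes. Over the 29 members of at least 50 kb, the median was 32.5 AEBP2 peaks per 100 kb, and the middle 50% of the 3056 genes of that length ran from 4.02 to 19.8 around a median of 9.22. At least 20 per 100 kb were found in 21 of the 29 (72.4%), against 24.6%. KCNC1 had 54.1 per 100 kb, KCNB2 53.9, KCNQ3 53.2 and KCNQ5 53.1, and KCNMA1, the longest member at 444 kb, held 149 AEBP2 peaks. Not all long members were dense. KCNH5, KCNN2, KCND3, KCNJ5, KCNT1 and KCNU1 had 2.71 to 4.51 per 100 kb, and KCNT1 had the highest JARID2 density of the 29, 31.6. Of these, KCND3, KCNJ5, KCNT1 and KCNU1 lie on chromosomes 26, 24, 17 and 22, KCNH5 on chromosome 5 and KCNN2 on Z. The densest, KCNC1, KCNB2, KCNQ3 and KCNQ5, lie on chromosomes 5, 2, 2 and 3. Whether AEBP2 density varies with the chromosome was not tested. KCNU1 had the most H3K27me3 peaks inside the gene and outside the end windows of any member, 16. Of the 1649 AEBP2 peaks inside members, 85.1% overlapped no peak of another list, close to the 85.6% of all AEBP2 peaks. The AEBP2 list is the longest of the 6, and no IgG signal was used here to set beside it.

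**Figure D5:**
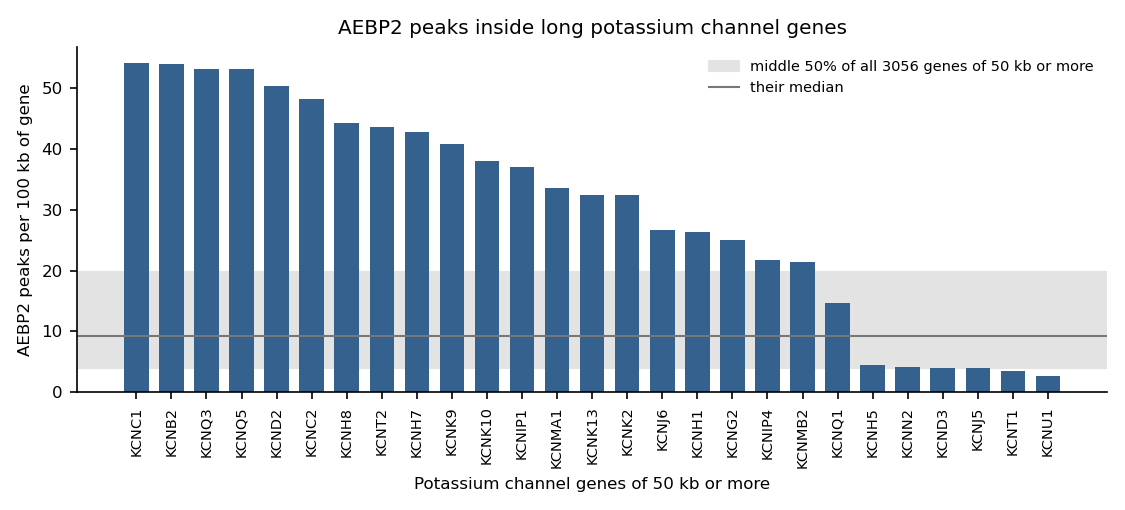
AEBP2 peaks per 100 kb of gene (bars) in 27 potassium channel genes of at least 50 kb, with the median (line) and the middle 50% (grey band) of all 3056 protein-coding genes of that length. KCNC1 is highest at 54.1 and KCNU1 lowest at 2.71, and 20 of the 27 genes drawn have at least 20 per 100 kb.

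Neighbouring members were compared as well, since they may share peaks. There were 13 consecutive pairs less than 200 kb apart, of which 7 had the same state and 6 did not. How often neighbours share a state among all genes was not computed, so these counts have no background. In the pairs KCNK16 with KCNK17 and KCNJ5 with KCNJ1, which had the same state, both genes counted the same H3K27me3 peak. The pairs with the same state included KCNE1 with KCNE2, both with neither mark, and KCNS1 with KCNK15, both with H3K27me3 alone and 143 kb apart. Another coding gene end lay within 1 kb of 16 members (19.3%), against 48.5% of all genes. At 13 of the 63 members with H3K27me3 every such end peak also lay at another coding gene's end (20.6%, against 35.4% of all genes with H3K27me3).

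The frequency of H3K27me3 was set beside that in other channel and receptor gene lists. It was found at the ends of 35 of 42 glutamate and GABA receptor genes (83.3%, against 26% of all genes). That list was taken by symbol and includes GRID2IP, which is not a receptor gene and had H3K27me3. Voltage-gated sodium channel genes had the mark in 7 of 11 cases (63.6%) and voltage-gated calcium channel genes in 9 of 20 (45%). H3K4me3 was found at 8, 3 and 10 genes of these lists in turn, and at 57.2% of all genes. Potassium channel genes, with 63 and 17 of 83, lay between the receptor genes and the sodium channel genes in the share with H3K27me3. HCN and CNG channel genes, given further below, had the mark in 8 of 10 cases (80%). Median gene lengths were 69.5 kb for the receptor, 51.8 kb for the sodium channel and 104 kb for the calcium channel genes, against 24.4 kb for members. The shares were not adjusted for length, and no test of these differences was made.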

How the data were processed

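The authors deposited 1 peak list per antibody, with 3 libraries per antibody. Tools named in the submitters' processing notes are MACS2 2.2.7.1, Bowtie2 2.4.1 and Trim Galore 0.6.4, with the build GRCg7b. Not given in the sources used here are any pooling of libraries and any use of IgG as the control. Each deposited peak has a fold (a ratio over the authors' background), a −log10 q-value, a score of 10 times the latter, and a summit offset. The deposited fold was used to rank within a list and the deposited −log10 q-value for a stricter alternative; the score and the summit offset were not used. The smallest −log10 q-value of each list was near 1.30, that of a q of 0.05.

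Genes were the 17839 protein-coding genes of the RefSeq table on assembled chromosomes, of 18023. Overlaps were computed with Python 3.11.15, numpy 2.4.6 and pandas 2.3.3. The overlap code was tested on simulated data against a slow search, with 0 mismatches in 2050 checks. Only counts and medians are given, since no values exist per library, and read depth is unknown. Every member is counted in its state; 3 members are not reported by name or drawn singly here, and counts include them. Values go to the strongest per list, subfamily and state, genes with both marks or neither, and the widest domains. The members and lists were chosen with earlier results of these data known. Neighbouring genes are not independent.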

Additional observations from a re-analysis of the deposited data

How the results depend on the processing

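Of 156 alternative values, 140 stayed within 1.5 times the reported count or value and 16 did not. These include subfamily counts, many of them small, which were tried with the 2.5 kb window only. They also include the H3K4me3 count with lists of equal size, which could not move because the H3K4me3 list set that size. The shares of members and of all genes with an end peak were also recomputed together, a step chosen after seeing the data, under 7 of these settings in each of the 6 lists. Their order stayed in 41 of 42 comparisons and turned for SUZ12 over whole genes, at 83.1% of members against 76.6%. The comparison of H3K4me3 with lists of equal size could not turn, for the same reason. For the states, peaks inside genes and domains, the shares of all genes were not recomputed under these settings. Over all 83 members, those with H3K27me3 ran from 48 to 74 those with EZH2 from 53 to 73 and those with H3K27me3 alone from 37 to 54. With each list cut to its 11079 strongest peaks, SUZ12 was at 12 members (14.5%, against 21.8% of all genes). JARID2 was then at 29 (34.9%, against 14%) and AEBP2 at 8 (9.64%, against 2.99%). The main counts of these 3 lists thus rest in large part on weaker peaks, in members as in all genes. With the peak midpoint required in the window, 5 members had H3K4me3 alone and 30 neither mark. Over whole genes these became 1 and 8. Among the 68 pore-forming genes 10 had neither mark. Among the 67 members without another coding end within 1 kb, 8 had H3K4me3 (11.9%, against 44.6% of all such genes). Of these members 0 had it alone and 8 had both marks. Leaving out mark peaks near another coding end, an alternative chosen after seeing the data, gave 31 with neither. Peaks inside the gene and not at an end numbered 20 for JARID2 at a −log10 q of at least 5. With 2.5 kb counted as end they numbered 14 for SUZ12, 6 for JARID2 and 8 for AEBP2. Members with a domain of at least 10 kb numbered 12 with gaps of 1 kb joined and 25 with gaps of 5 kb. No paired analysis was possible because each antibody has 1 list and no values per library. Counting the transcription start alone, searching promoter letters and leaving out a library were not run, for want of strand, sequence and lists per library.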

Other observations

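Other genes that act with potassium channels or move potassium were looked up from lists of 12 partners and 15 pump and cotransporter genes, of which 9 and 10 matched a symbol. Genes of the sodium pump and potassium chloride transport had H3K4me3 alone in 6 of 10 cases (60%, against 45.3% of all genes). H3K27me3 was at 2 of the 10 (20%, against 26% of all genes). SLC12A2, the sodium potassium chloride cotransporter, had an H3K4me3 fold of 47.3, and the pump genes ATP1B1 and ATP1B3 had 16.1 and 8.92. SLC12A5, the neuronal potassium chloride cotransporter, had H3K27me3 at 26.3. The channel genes had H3K27me3 in 63 of 83 cases and H3K4me3 alone in 3, and this difference was not tested. Of the 9 partners, 4 had H3K27me3 (44.4%, against 26% of all genes). Among them were DPP10, a Kv4 partner, at 24.2 and ABCC8, the sulphonylurea receptor gene, at 2.23. HCN and CNG genes, for cation channels of the same superfamily, had H3K27me3 in 8 of 10 cases (80%, against 26% of all genes). HCN3 had both marks at 45.2 for H3K27me3 and 37.3 for H3K4me3.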
